A study of Mus musculus with 15 samples.

Results

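The mRNAs of 6 ribosome biogenesis factors, Ddx21, Ddx24, Bms1, Wdr43, Las1l and Dkc1, were followed in ribosome-bound RNA of mouse eggs and early embryos. They are 6 of the 55490 genes in the count table and 6 of its 21443 protein-coding genes, and they were taken by symbol. They were chosen by their shares of the protein-coding counts across these same libraries, so their levels across stages and genotypes are given here as a description. The donors were B6D2F1 females that were heterozygous (Het) or knockout (KO) for Eif4e1b, which encodes an oocyte form of eIF4E, the factor that binds the mRNA cap. All donors of both genotypes carried an HA-tagged Rpl22, a large-subunit ribosomal protein, and ribosomes were pulled down by that tag after RNase digestion. The groups were M2 eggs (2 Het and 2 KO libraries), PN5 zygotes (3 Het and 3 KO) and early 2-cell embryos (3 Het and 2 KO). The controls were heterozygous, with no wild-type group among the libraries used here. Pools of about 200 cells were used for eggs and zygotes, and of about 100 embryos for the early 2-cell stage. The genotype is that of the mother, and neither donor age nor sire genotype is given in the sources used here. Nothing in the labels ties the libraries of a group to different animals, and p-values reflect only how these samples vary, which may be technical.

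Ribosomes are assembled in the nucleolus. RNA polymerase I transcribes a long precursor, which is folded, chemically modified and cut by many factors while ribosomal proteins are added, and the small and large subunits then leave the nucleus separately. In mice the fully grown egg is nearly silent in rRNA synthesis and its nucleolus is an inert precursor body, so the embryo lives on maternal ribosomes until rRNA synthesis resumes around the 2-cell stage. Wdr43 and Bms1 belong to the small subunit processome, the large particle that assembles on the young precursor: Wdr43 is a subunit of the complex that binds it first, and Bms1 is its GTPase. Dkc1 (dyskerin) is the pseudouridine synthase of the H/ACA small nucleolar ribonucleoproteins. Ddx21 is a nucleolar DEAD-box RNA helicase that associates with rRNA genes and small nucleolar RNAs. Las1l is part of the nuclease complex that opens the spacer in front of the large-subunit rRNA, and Ddx24 is a DEAD-box helicase related to a yeast factor of large-subunit assembly.

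Depth limits every value below. The protein-coding counts of a library ran from 1059 to 47397, on totals of 93222 to 1201146 that were mostly ribosomal RNA. The early 2-cell libraries held 1059 to 7795 protein-coding counts, and those of eggs and zygotes 5997 to 47397. Levels are given as a share of a library's protein-coding counts, and a count of 0 is read as a share under that of 3 counts. These limits and the exact 95% binomial (Clopper-Pearson) intervals cover at most the error of counting, and treat each count as a separate molecule. The libraries were made with 22 PCR cycles, and copies of a molecule could not be told from separate molecules. The limits and intervals may therefore be too narrow. Fewer cells and less RNA per cell cannot be told apart in pooled samples. Eif4e1b and the tagged Rpl22 each had 0 counts in all 15 libraries, so neither label could be checked with them. Of 19 egg and early embryo markers, 9 had counts (503 in all), and the egg-coat genes Zp1, Zp2 and Zp3 were at 0. Of 17 cumulus and granulosa markers, 6 had counts (650 in all), and blood and sperm markers together had 1. Of 9 markers of the 2-cell embryo, 3 had counts (9 in all, of which the early 2-cell libraries held 2 for Het and 0 for KO), and the Zscan4 genes on that list were at 0. Transcript lengths were not used here, so levels of different genes are not compared with each other.

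The 6 mRNAs together had 2068 counts over the 15 libraries, of which Wdr43 had 792, Bms1 611, Ddx21 344, Las1l 169, Ddx24 91 and Dkc1 61. Their summed share of the protein-coding counts was 0.342 ± 0.0504% for Het and 0.811 ± 0.416% for KO in M2 eggs (SD, n = 2 each), and 1.02 ± 0.501% for Het and 0.733 ± 0.521% for KO in PN5 zygotes (n = 3 each). At the early 2-cell stage it was 1.11 ± 0.814% in Het (n = 3) and 0.445 ± 0.504% in KO (n = 2). The ranges of Het and KO overlapped in PN5 zygotes (0.531% to 1.53% against 0.135% to 1.10%) and in early 2-cell embryos (0.629% to 2.05% against 0.0881% to 0.801%). In M2 eggs they did not (0.306% and 0.377% in Het, 0.517% and 1.11% in KO). Of the 425 protein-coding genes that passed a filter on low counts, 22.8%, each taken singly, also did not overlap there. Without Bms1 the M2 KO mean was 0.478 ± 0.0552% against 0.277 ± 0.0417% in Het (n = 2 each). Single libraries carried some of these means: the summed M2 KO mean was 0.517% without replicate 2, and the early 2-cell Het mean was 0.645% without replicate 2.

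**Figure D1:**
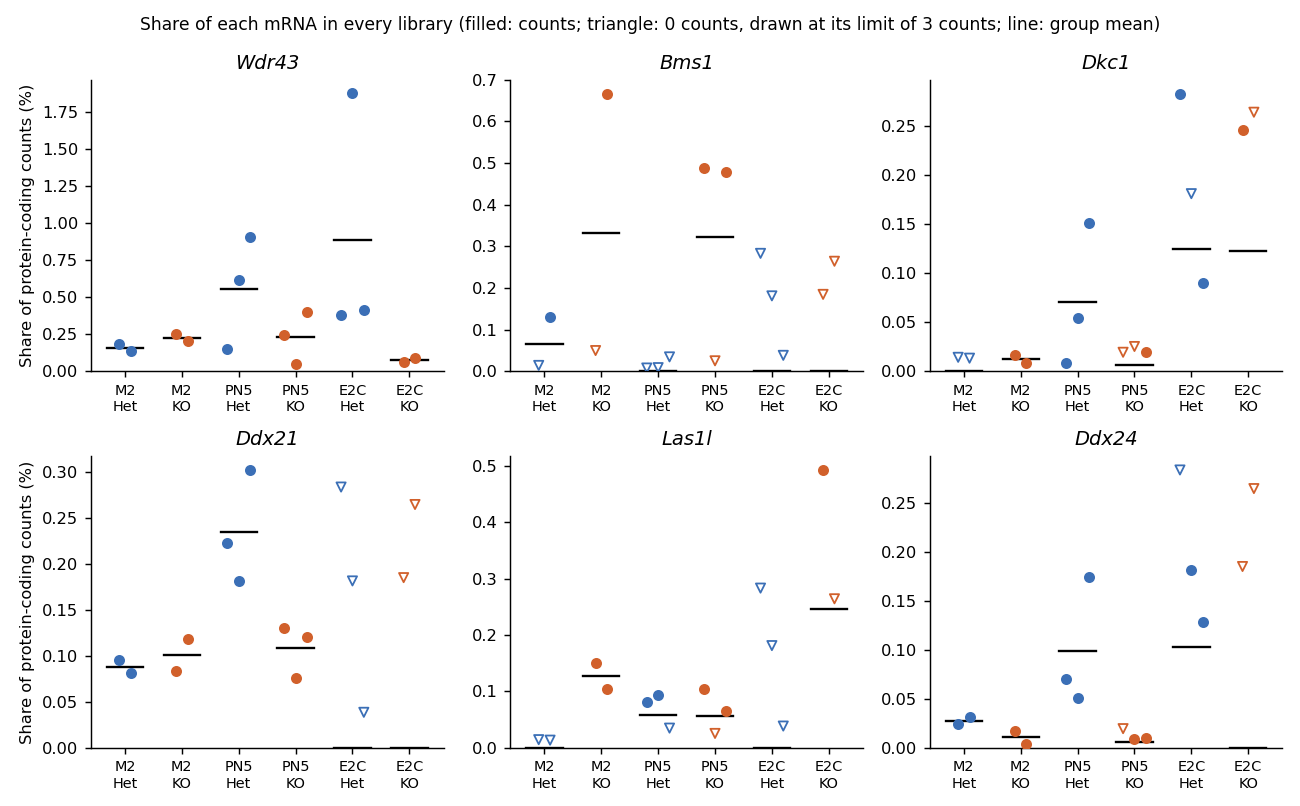
Each panel plots the share of protein-coding counts (%, linear axis from 0) of 1 mRNA in every library, by stage and maternal genotype (Het blue, KO orange); filled circles are libraries with counts, open triangles are libraries with 0 counts drawn at the limit that 3 counts set, and black lines are group means. Ddx21 has counts in the 10 egg and zygote libraries and in no early 2-cell library, and Bms1 has counts in 4 libraries only.

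All 6 mRNAs passed the filter on low counts and were fitted with the other tested genes, 495 in all, in edgeR's quasi-likelihood model. A gene can pass through a single group in which it is high. The model called 0 of 495 genes (0%) for KO against Het at any of the 3 stages, with 6 genes in M2 eggs, 35 in PN5 zygotes and 25 in early 2-cell embryos at an unadjusted p under 0.05. It called 0 (0%) for PN5 against M2, with 22 at an unadjusted p. For early 2-cell embryos against PN5 zygotes, over both genotypes, it called 4 genes (0.808%), all lower at the early 2-cell stage, with 122 at an unadjusted p under 0.05. Other methods called genes in both directions, 8 higher and 14 lower with limma-voom and 13 higher and 43 lower with DESeq2. Of the 6 mRNAs, Ddx21 was among these 4. The other 3 were Cenpe, Nefh and the predicted gene AC161374.3, named after their values were seen. The median log2 difference of all 495 genes in that comparison was -2.01 in the edgeR fit, -1.02 in DESeq2 and -0.10 in limma-voom, so values set beside it below hold for the edgeR fit alone.

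Wdr43 (ENSMUSG00000041057, chromosome 17, 71616178 to 71659031 on GRCm38), the early-binding processome subunit, was the only member with counts in all 15 libraries. In M2 eggs it had 39 and 30 counts in Het and 15 and 97 in KO, which are shares of 0.187% and 0.135% against 0.250% and 0.205%. In PN5 zygotes the shares were 0.149%, 0.614% and 0.906% in Het and 0.247%, 0.0508% and 0.403% in KO, on 6 to 204 counts a library. In early 2-cell embryos they were 0.378%, 1.87% and 0.411% in Het, on 4, 31 and 32 counts, and 0.0616% and 0.0881% in KO, on 1 count each. The KO libraries lay above Het in M2 eggs, overlapped with Het in PN5 zygotes and lay below Het in early 2-cell embryos.

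The early 2-cell gap in Wdr43 rests on few reads. The Het mean was 0.887 ± 0.854% (n = 3) and the KO mean 0.0749 ± 0.0187% (n = 2). Without Het replicate 2 the Het mean was 0.394%. Pooled over libraries, 67 of 10509 protein-coding counts in Het against 2 of 2758 in KO give a ratio of 8.79, with an exact 95% interval of 2.34 to 74.1 for counting error. The interval of the single KO libraries reached 0.343% and 0.490%, below all Het values in the first case and above 2 of them in the second. The fitted log2 difference of KO from Het was 0.32 (SE 1.37) in M2 eggs, -1.14 (SE 1.13) in PN5 zygotes and -4.07 (SE 1.61) in early 2-cell embryos. The signs at the 3 stages were the same in every alternative fit and in every fit that left out 1 library. The difference between the KO effects of PN5 and M2 was -1.46 (SE 1.78), and that between early 2-cell and PN5 was -2.92 (SE 1.88).

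By stage, Wdr43 took 0.194 ± 0.0477% in the 4 M2 libraries, 0.395 ± 0.319% in the 6 PN5 libraries and 0.562 ± 0.750% in the 5 early 2-cell libraries, and the ranges overlapped. The fitted log2 difference of early 2-cell from PN5 embryos was -1.93 (SE 0.95), opposite in sign to the shares and close to the median of all genes.

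Bms1 (ENSMUSG00000030138, chromosome 6, 118383381 to 118419802), the processome GTPase, was either plentiful or missing. It had 29 counts in M2 Het replicate 2, 316 in M2 KO replicate 2, 75 in PN5 KO replicate 1 and 191 in PN5 KO replicate 3, and 0 in the other 11 libraries. The shares in those 4 libraries were 0.130% (95% interval 0.0873% to 0.187%), 0.667% (0.595% to 0.744%), 0.487% (0.383% to 0.610%) and 0.478% (0.412% to 0.550%). In eggs and zygotes the 6 libraries at 0 allow shares of at most 0.00813% to 0.05%, below all 4 of these values. The limits of the early 2-cell libraries, 0.0385% to 0.283%, lie below those 3 KO shares but for 4 of 5 libraries above the M2 Het share.

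In PN5 zygotes Bms1 was at 0.322 ± 0.279% in KO (n = 3) and at 0 in Het (n = 3), at least 84.4-fold higher in KO by a limit of 3 counts over the Het group. KO replicate 2 was also at 0, so the groups overlap. In M2 eggs the mean was 0.333 ± 0.471% in KO and 0.0651 ± 0.0921% in Het (n = 2 each), and each mean rests on replicate 2. Without M2 KO replicate 2 the KO mean was 0 and the log2 difference turned from 2.06 to -6.71. The cumulus and granulosa markers moved with Bms1 in PN5 zygotes. Their share was 0.318% and 0.888% in PN5 KO replicates 1 and 3, 0.0847% in KO replicate 2 and 0% to 0.0298% in Het, with 47 of the 49 counts of KO replicate 1 and 340 of the 355 of KO replicate 3 in Cyp11a1, and 11 of the 17 markers, among them Amh, Fshr and Inha, were at 0 in all libraries. In M2 KO eggs the markers were at 0.116% in replicate 2, which had the most Bms1, and at 0% in replicate 1, which had none. In M2 Het eggs the order was the other way, with 0.765% in replicate 1, which had no Bms1, and 0.0404% in replicate 2, which did. PN5 KO replicate 3 also had 36.0% of its counts in mitochondrial rRNA, against 5.53% to 18.2% elsewhere. The part of these differences in the Bms1 result was not tested, and without PN5 KO replicate 3 the KO mean was 0.244%.

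Other mRNAs of similar abundance were mostly spread over more libraries than Bms1. Among the 91 other tested protein-coding genes with between 0.5 and 2 times its total, the median number of libraries with counts was 13, and 10 of the 91 (11%) had counts in 4 or fewer. Wdr43, with 15, was at the top of its 67 comparators (median 13). Ddx21 had counts in 10 libraries against a median of 11 for 141 comparators, Las1l in 7 against 9 for 222, Ddx24 in 11 against 8 for 220 and Dkc1 in 9 against 8 for 167.

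**Figure D2:**
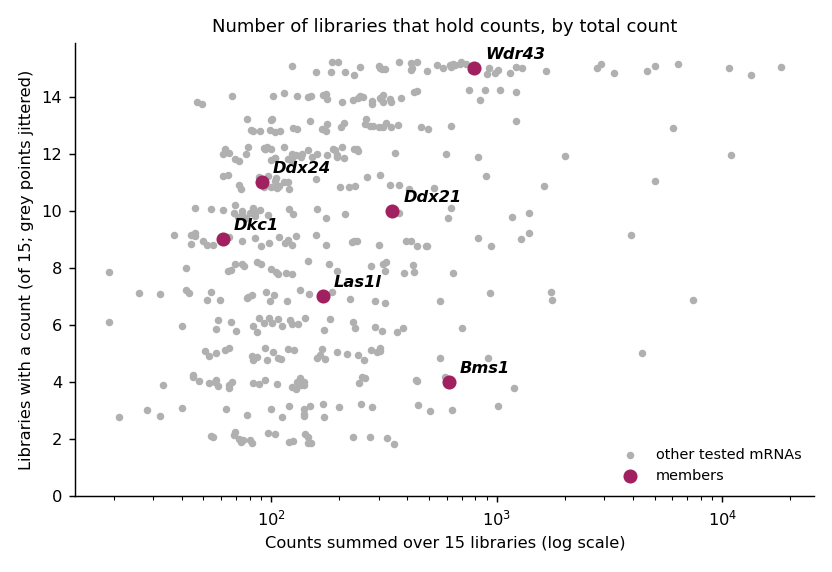
The number of libraries with a count (of 15, linear axis) is plotted against the count summed over all libraries (log axis) for the 425 tested protein-coding genes; the 6 members are in red and the other genes in grey, shifted slightly up or down so that points can be told apart. Bms1, with 611 counts in 4 libraries, lies low for its total, and Wdr43, with 792 counts, is in all 15.

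Ddx21 (ENSMUSG00000020075, chromosome 10, 62580247 to 62602298), the nucleolar helicase, was bound in every egg and zygote library and had no count at the early 2-cell stage. In M2 eggs it had 20 and 18 counts in Het and 5 and 56 in KO, with shares of 0.0957% and 0.0809% against 0.0834% and 0.118%. In PN5 zygotes it had 82, 60 and 26 counts in Het and 20, 9 and 48 in KO. Those are shares of 0.222%, 0.181% and 0.302% in Het and 0.130%, 0.0762% and 0.120% in KO. The M2 ranges of Het and KO overlapped, and in PN5 zygotes every KO library lay below every Het library.

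The early 2-cell libraries allow at most 0.283%, 0.181%, 0.0385%, 0.185% and 0.264% of Ddx21. Only the limit of Het replicate 3 lies below the lowest egg or zygote value of 0.0762%. Over the 5 libraries, 0 of 13267 protein-coding counts allow a share of up to 0.0226%, against a mean of 0.172 ± 0.0814% in PN5 zygotes (n = 6), at least 7.60-fold lower. Without early 2-cell Het replicate 3, which holds 7795 of those 13267 counts, the bound was 3.13-fold. Only with each count of 0 taken as a share of 0 did the groups not overlap, since the limits of the other 4 libraries lie within the PN5 range of 0.0762% to 0.302%. Counted in that way, non-overlap was seen for 3.06% of the 425 tested protein-coding genes in this comparison, 1.41% being lower at the early 2-cell stage. Ddx21 was called in 3 of the 15 fits that left out 1 library (those without PN5 Het replicate 3, PN5 KO replicate 2 or early 2-cell Het replicate 2). It also passed in DESeq2, limma-voom, the fit with DESeq2 size factors and the fit of protein-coding genes, and not with library totals alone or without the low-count filter. The contrast is among those by which the mRNA was picked, so this is no independent evidence.

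Between genotypes, the Ddx21 mean in PN5 zygotes was 0.235 ± 0.0616% in Het and 0.109 ± 0.0286% in KO (n = 3 each), 2.16-fold higher in Het. The fitted log2 difference was -1.11 (SE 1.08), and it ran from -1.33 to -0.69 over the alternatives and left-out libraries. In M2 eggs the means were 0.0883 ± 0.0105% in Het and 0.101 ± 0.0246% in KO (n = 2 each), with a log2 difference of 0.04 (SE 1.31) that changed sign between alternatives. The Ddx21 shares ran from 0.181% to 0.302% in PN5 Het, from 0.0762% to 0.130% in PN5 KO and from 0.0809% to 0.118% in M2 eggs. Over both genotypes the PN5 and M2 ranges overlapped. How many other genes had PN5 Het above all M2 libraries was not counted.

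Ddx24 (ENSMUSG00000041645, chromosome 12, 103407976 to 103425847), the helicase linked to large-subunit assembly, was low, with at most 26 counts in a library. In M2 eggs it had 5 and 7 counts in Het and 1 and 2 in KO, with shares of 0.0239% and 0.0314% against 0.0167% and 0.00422%. In PN5 zygotes it had 26, 17 and 15 counts in Het (0.0704%, 0.0512% and 0.174%) and 0, 1 and 4 in KO, where the limit of replicate 1 was 0.0195% and the other shares were 0.00847% and 0.01%. At the early 2-cell stage it had 0, 3 and 10 counts in Het and 0 in both KO libraries, whose limits of 0.185% and 0.264% lie above the Het shares of 0.181% and 0.128%. The Het shares lay above KO without overlap in M2 eggs and PN5 zygotes, and at the early 2-cell stage the depth could not show a difference. In M2 eggs the 95% interval of KO replicate 1, on 1 count, reached 0.0929%, above both Het shares.

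The Ddx24 mean in PN5 zygotes was 0.0986 ± 0.0661% in Het and 0.00616 ± 0.00539% in KO (n = 3 each). Pooled, 58 of 78731 counts against 5 of 67203 give a ratio of 9.90 (exact 95% interval 4.01 to 31.6 for counting error), while the ratio of the means was 16.0. Het replicate 3 carried much of the Het mean, which was 0.0608% without it. The fitted log2 difference was -3.83 (SE 1.67) in PN5 zygotes and -1.82 (SE 1.98) in M2 eggs. In M2 eggs, 12 of 43167 counts in Het against 3 of 53394 in KO give a ratio of 4.95 (exact interval 1.34 to 27.3).

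Las1l (ENSMUSG00000057421, chromosome X, 95920045 to 95956974), of the spacer-cutting nuclease complex, had no count in M2 Het eggs and in 4 of the 5 early 2-cell libraries. In M2 eggs it had 0 counts in both Het libraries, which allow 0.0143% and 0.0135%, and 9 and 49 in KO, shares of 0.150% and 0.103%. In PN5 zygotes the genotypes overlapped, with 30, 31 and 0 counts in Het (0.0813%, 0.0934% and under 0.0348%) and 16, 0 and 26 in KO (0.104%, under 0.0254% and 0.0650%). Early 2-cell KO replicate 1 had 8 counts, a share of 0.493% with an interval of 0.213% to 0.969%, and the other 4 libraries had 0. Their limits were 0.283%, 0.181% and 0.0385% in Het and 0.264% in KO, and 3 of these lie above every egg and zygote share of Las1l.

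The M2 KO mean of Las1l, 0.127 ± 0.0330% (n = 2), was at least 18.2-fold above the limit of 0.00695% over the Het group. In PN5 zygotes the means were 0.0563 ± 0.0525% in KO and 0.0582 ± 0.0508% in Het (n = 3 each). The fitted difference there was -0.07 (SE 1.76), and its sign changed between alternatives. The early 2-cell KO mean of 0.246 ± 0.349% rests on replicate 1 alone, and without it both genotypes were at 0.

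Dkc1 (ENSMUSG00000031403, chromosome X, 75095854 to 75109776), the dyskerin gene, was the scarcest of the 6, with 0 to 18 counts a library. It had 0 counts in both M2 Het libraries and 1 and 4 in M2 KO, so that M2 KO (0.0126 ± 0.00582%, n = 2) was at least 1.81-fold above the Het limit. In PN5 zygotes it had 3, 18 and 13 counts in Het and 0, 0 and 8 in KO. In early 2-cell embryos it had 3, 0 and 7 in Het and 4 and 0 in KO.

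The PN5 shares of Dkc1 were 0.00813%, 0.0542% and 0.151% in Het, and in KO under 0.0195%, under 0.0254% and at 0.0200%, so the groups overlapped. The mean was 0.0711 ± 0.0729% in Het and 0.00667 ± 0.0115% in KO (n = 3 each). The Het mean was 0.0312% without replicate 3, and KO was at 0 without its replicate 3. Pooled, 34 of 78731 counts against 8 of 67203 give a ratio of 3.63 (exact interval 1.65 to 9.07). In early 2-cell embryos the means were 0.124 ± 0.145% in Het (n = 3) and 0.123 ± 0.174% in KO (n = 2), with a pooled ratio of KO to Het of 1.52 (exact interval 0.349 to 5.28). By stage, Dkc1 took 0.00628 ± 0.00799% in M2 eggs (n = 4), 0.0389 ± 0.0585% in PN5 zygotes (n = 6) and 0.124 ± 0.134% in early 2-cell embryos (n = 5), with overlapping ranges. It was the only member whose fitted difference of early 2-cell from PN5 was above 0 (0.81, SE 1.40), and it was -2.21 without early 2-cell KO replicate 1.

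Set side by side, with a count of 0 taken as a share of 0, the genotypes did not overlap in M2 eggs for 4 of the 6 mRNAs, with Wdr43, Las1l and Dkc1 higher and Ddx24 lower in KO. By the limit of 3 counts Dkc1 did overlap, since M2 KO replicate 2 at 0.00844% lay below the limits of both Het libraries (0.0143% and 0.0135%). Ddx24 in M2 KO replicate 1 rested on 1 count, and its 95% interval reached 0.0929%, above both Het shares. Of the 425 tested protein-coding genes 22.8% did not overlap there, 10.1% higher and 12.7% lower in KO. In PN5 zygotes this held for Ddx21 and Ddx24, both lower in KO, against 7.06% of genes, 3.53% higher and 3.53% lower. Among early 2-cell embryos it held for Wdr43, lower in KO, against 11.1% (7.06% higher and 4% lower), and between PN5 and M2 for none, against 0.706%. The median fitted log2 difference of the 6 for KO against Het was 1.19 in M2 eggs, -1.12 in PN5 zygotes and -0.02 in early 2-cell embryos, where the medians of all 495 genes were -0.02, 0 and 0. In PN5 zygotes 5 of the 6 were negative and Bms1 was positive, and in M2 eggs 5 were positive and Ddx24 negative. Some of these signs were not firm. Las1l in PN5 zygotes (-0.07, SE 1.76) and Ddx21 in M2 eggs (0.04, SE 1.31) changed sign between alternatives. Bms1 in M2 eggs turned negative without KO replicate 2. The shares of all 495 genes with each sign were not counted, and the 6 were picked by these levels. For PN5 against M2 the median of the 6 was 0.89, against 0.19 for all genes, and for early 2-cell against PN5 it was -2.57, against -2.01. These medians hold genes with a group at 0, whose fitted values depend on the prior count. The differences between the KO effects of successive stages gave 0 calls among the 495 genes (0%), with 26 genes for PN5 against M2 and 25 for early 2-cell against PN5 at an unadjusted p under 0.05. They called none of the 6.

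Detection of the members was set beside the depth of each library. All 6 had counts in M2 KO replicate 2 and PN5 KO replicate 3, the libraries with the most protein-coding counts (47397 and 39997). PN5 Het replicates 1 and 2 and M2 KO replicate 1 held 5, and the last of these had only 5997 counts. The early 2-cell libraries held 1 to 3. Among the 419 other tested protein-coding genes, 36.0% to 43.7% had counts in an early 2-cell library and 41.3% to 89.5% in an egg or zygote library. Wdr43 and Dkc1 were each seen in 3 or more early 2-cell libraries, Ddx24 in 2 and Las1l in 1, and Ddx21 and Bms1 in none.

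**Figure D3:**
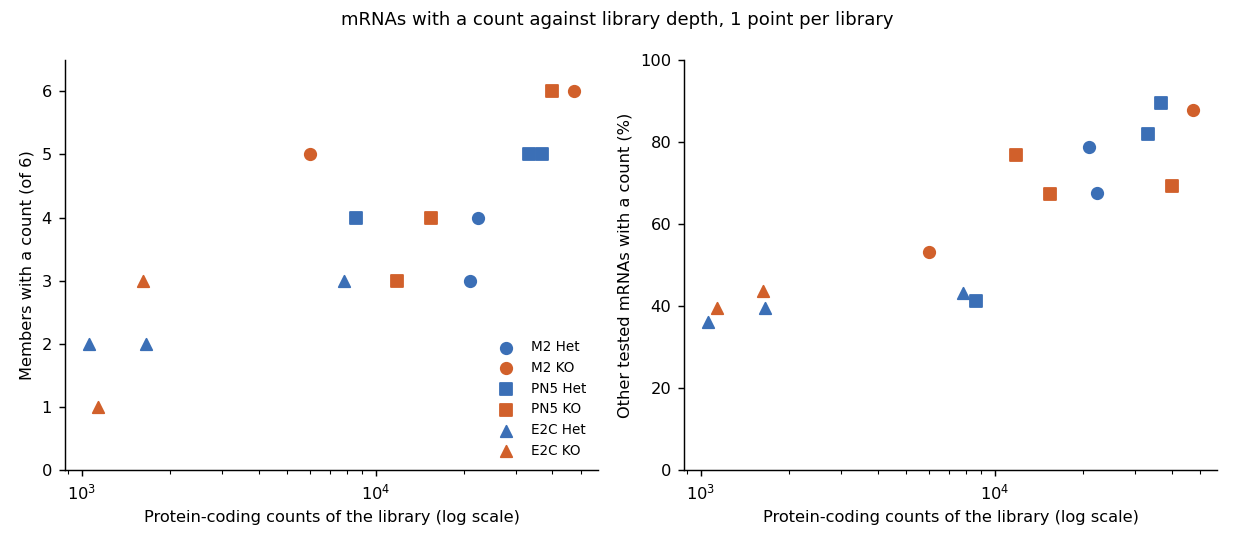
Each point is 1 library, with its protein-coding counts on a log axis and, on linear axes, the number of the 6 members that had a count (left) and the percentage of the 419 other tested protein-coding genes that had one (right); colours give the genotype and symbols the stage. Early 2-cell libraries hold 1 to 3 members and 36.0% to 43.7% of the other genes, and the 2 deepest libraries hold all 6 members.

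Over the 15 libraries, the correlation of log2 shares (with 0.01% added) between pairs of members ran from -0.36 for Ddx24 with Bms1 to 0.66 for Ddx24 with Wdr43. The values share library depth and many zeros, and they are given as a description. By the same measure, the tested mRNAs most like Ddx21 were the neurofilament gene Nefh (r = 0.91), Mtdh (0.88) and Fam107b (0.77). Those most like Wdr43 were Cyth3 (0.80), the methionine aminopeptidase gene Metap2 (0.61) and E330021D16Rik (0.59). Among those most like Ddx24 were the histone chaperone gene Nasp (0.72) and the SUMO protease gene Senp5 (0.64), which had counts in 5 and 3 libraries.

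The other genes of the pathway were described from a list of 175 genes in 6 roles. Of these, 66 had a count, 42 had at least 10 (24.0%, against 7.79% of all protein-coding genes) and 16 were tested. The list was chosen with earlier results of these data known, so these percentages are a description only. None of the 16 passed edgeR's test in either direction in any comparison. The smallest adjusted p was 0.0708, for Ncl (nucleolin) between early 2-cell embryos and PN5 zygotes, and 3 of the 16 had an unadjusted p under 0.05 there. Their median log2 difference was 0.38 in M2 eggs, -0.38 in PN5 zygotes and -0.29 in early 2-cell embryos for KO against Het. For early 2-cell against PN5 it was -0.74, with 6 genes higher and 10 lower, where the median of all 495 genes was -2.01. Ncl had 18158 of the 22353 counts of the list. Without it the list took 1.31 ± 0.430% in M2 eggs (n = 4), 1.47 ± 0.615% in PN5 zygotes (n = 6) and 3.65 ± 1.76% in early 2-cell embryos (n = 5). The ranges overlapped, with 0.708% to 2.21% in PN5 zygotes and 1.70% to 5.54% in early 2-cell embryos. Het libraries held 523 of the 621 early 2-cell counts, and 10509 of the 13267 protein-coding counts of that stage. The mean share there was 3.88 ± 1.97% in Het (n = 3) and 3.30 ± 2.05% in KO (n = 2).

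Box C/D and H/ACA genes had 415 counts, of which Nop58, a core protein of the box C/D particle, had 233. Dkc1 belongs to the H/ACA particle, whose genes Gar1, Nhp2 and Nop10, named after their values were seen, had 0 counts. The summed share of this role was 0.0526% to 0.133% in M2 eggs and 0.0339% to 0.160% in PN5 zygotes, which overlapped. It was 0.176% to 1.89% in early 2-cell embryos, above both of those ranges. The lowest early 2-cell value, in KO replicate 2, rests on 2 counts, fewer than the 3 of the limit, and 147 of the 179 early 2-cell counts were in Het replicate 3. Among single tested protein-coding genes, 1.65% lay higher without overlap in early 2-cell embryos than in PN5 zygotes. Nop58 itself had counts in all 15 libraries, with 1.51% of early 2-cell Het replicate 3 on 118 counts and 0.121% to 0.801% in the other 4 on 2 to 13 counts. In PN5 zygotes it took 0.0108% to 0.0843%, and the log2 difference was 2.37 (SE 0.96, adjusted p = 0.163 by edgeR's quasi-likelihood test). Nop56, its partner in the particle, had 54 counts, and Nolc1, a chaperone of these particles, had 112. Tcof1 had 6. Of 17 genes in this role 3 were tested.

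Small subunit processome and maturation genes, the partners of Wdr43 and Bms1, took 0.412 ± 0.109% in M2 eggs (n = 4) and 0.440 ± 0.150% in PN5 zygotes (n = 6). In early 2-cell embryos (n = 5) they took 0.882 ± 0.888%, and the ranges overlapped. Het replicate 3 and KO replicate 1 were at 1.86% and 1.85% there. The early 2-cell median was 0.283%, against 0.428% in PN5 zygotes. The leading genes of this role were Mphosph10 (314 counts in 8 libraries), Nol10 (204 in 13), Esf1 (158 in 11) and Utp3 (112 in 11), and 4 of its 55 genes were tested. Mphosph10 had 3 early 2-cell counts, all in Het replicate 2, and 51 of the 60 early 2-cell counts of Esf1 were in Het replicate 3. Large-subunit genes, the partners of Las1l and Ddx24, took 0.700 ± 0.494%, 0.812 ± 0.480% and 1.70 ± 1.01% at the 3 stages, with overlapping ranges. Of the 66 genes in this role 6 were tested. Pelp1, which belongs to the same complex as Las1l, had 911 counts in 5 libraries (148 to 218 each) and 0 in the other 10. Las1l had counts in 4 of those 5 libraries and in 3 of the other 10. Nol8 (313 counts in 14 libraries) and Rbm28 (300 in 15) were spread more evenly, and Rsl1d1 had 124 counts in 6.

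Genes of RNA polymerase I transcription had 119 counts, of which Taf1d, a subunit of its promoter selectivity factor, had 80. The polymerase subunit genes Cd3eap and Twistnb had 15 and 12, and the termination factor gene Ttf1 had 7. Exosome and trimming genes had 193 counts, with 137 in Mphosph6, 51 in the exonuclease gene Xrn2, 3 in C1d and 2 in Exosc8. Among the nucleolar scaffold genes, Pinx1 had 17 counts beside Ncl. In Ncl the shares were 11.3 ± 0.500% in M2 Het, 9.87 ± 2.91% in M2 KO (n = 2 each), 4.31 ± 0.542% in PN5 Het and 7.59 ± 2.62% in PN5 KO (n = 3 each). At the early 2-cell stage they were 3.21 ± 2.20% in Het (n = 3) and 4.56 ± 2.53% in KO (n = 2), and the log2 difference of early 2-cell from PN5 was -2.13 (SE 0.59), which did not pass.

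**Figure D4:**
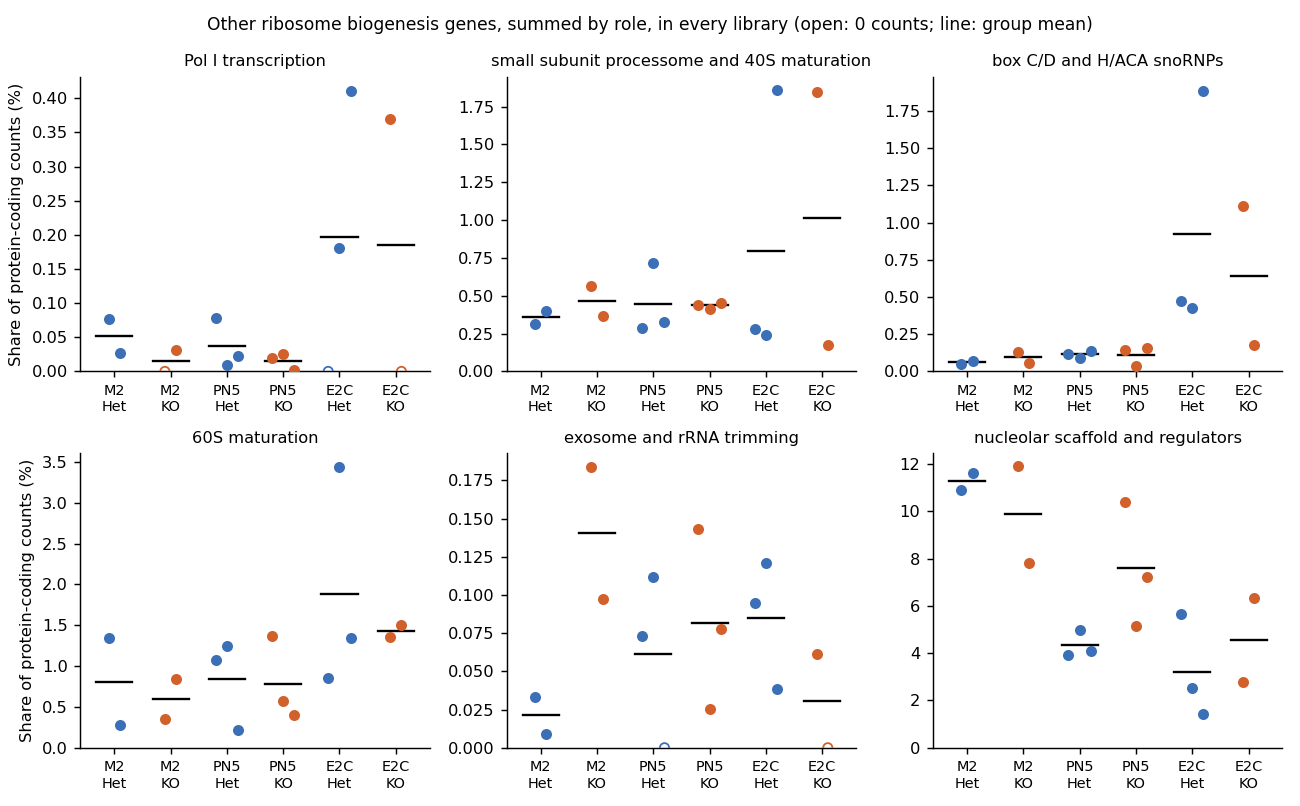
Each panel plots the summed share of protein-coding counts (%, linear axis from 0) of the other ribosome biogenesis genes of 1 role in every library, by stage and genotype (Het blue, KO orange); open circles are libraries with 0 counts and black lines are group means. The box C/D and H/ACA genes are at 0.176% to 1.89% in early 2-cell libraries and at 0.160% or less in the others.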

How the data were processed

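Ribosome-bound RNA was measured in 15 libraries of 6 groups. The authors deposited 1 table of estimated counts for each gene, which were whole numbers with no scaling of libraries to each other. The submitters' processing notes name cutadapt, STAR 2.7.6a, StringTie 2.1.4, deepTools 3.5.1 and the GRCm38 build, and the role and order of these tools are not given in the sources used here. Reads cut from ribosome-protected fragments are short, and how those matching several places were shared is not given there either. Ribosomal RNA makes up most of each total.

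The members and the gene lists were chosen with earlier results of these data known. All 6 members were named, with the up to 4 other biogenesis genes of most counts per role, any called gene of that list, and the 3 tested mRNAs closest in pattern to each member with counts in at least 10 libraries. One mRNA that this rule names is not reported here. Gene types and positions came from a RefSeq table of the GRCm38 assembly, matched by symbol or older symbol, and 16225 of 55490 genes had no match there.

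Estimated counts were rounded to whole numbers and fitted over all 15 libraries with 6 group means in edgeR 4.0.16 (TMM, filterByExpr with a minimum count of 10, robust quasi-likelihood test, prior count 0.125, Benjamini-Hochberg adjusted p under 0.05) in R 4.3.3. Standard errors were worked back from the F statistic. Shares were taken of protein-coding counts. The code was run on simulated counts with known changes. That run was a check of the code and does not show how small a change the fit could find in these data. The alternatives were limma-voom (limma 3.58.1), DESeq2 1.42.0, its size factors, library totals, no filter, protein-coding genes alone, a replicate block, other denominators and each library left out. Same-numbered libraries of a stage were not treated as pairs, since the labels give no shared source.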

Additional observations from a re-analysis of the deposited data

How the results depend on the processing

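The 4 genes called between early 2-cell embryos and PN5 zygotes became 22 with limma-voom, 56 with DESeq2, 16 without the low-count filter and 0 with library totals alone. Leaving out 1 library gave 0 to 12 calls. With 8 calls the library left out was PN5 Het replicate 3, with 12 PN5 KO replicate 2, with 7 early 2-cell Het replicate 2 and with 1 PN5 Het replicate 1, and each of the other 11 gave 0. The cause was not tested. Other ribosome biogenesis genes were called there with limma-voom (1, Ncl), DESeq2 (2, Ncl and Nop58) and no filter (1, Pelp1), and 0 to 1 with a library left out (Ncl, without PN5 KO replicate 2). KO against Het gave 1 call with DESeq2 in M2 eggs (Dek), and 1 in early 2-cell embryos with DESeq2 and 1 with no filter (both Cdk11b). Leaving out 1 library gave 0 to 1 there (Top1, without early 2-cell Het replicate 2). The difference between the KO effects of early 2-cell and PN5 embryos gave 2 calls with no filter (Cdk11b and Ncor1). These genes were named after their values were seen. Of the 6 members, Ddx21 alone was called under any of these settings, and only between early 2-cell embryos and PN5 zygotes.

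The summed share of the 6 members moved by more than its spread over libraries when the 10 most abundant genes were left out of the denominator, to 0.605% in M2 Het, 1.31% in M2 KO and 1.82% in PN5 Het. Against all counts outside rRNA it was 0.277% in M2 Het. Of 1381 other single-gene values, 1322 moved by under 1 SD or SE and 59 by more. Leaving out 1 library of so small a group cannot move its mean share by 1 SD. For mean shares with a library left out, the tally therefore shows nothing about stability. By the same measure the summed early 2-cell KO mean of 0.445% counted as little moved, though it was 0.0881% without replicate 1.

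With the replicate number as a block, 0 genes were called for KO against Het at each stage and for both differences between stages. The block left 4 residual degrees of freedom, against 9 in the main fit, which also called 0 in these comparisons. Its 0 calls therefore add little. Same-numbered libraries deviated with correlations of -0.148 in M2 eggs, -0.34 to 0.0961 in PN5 zygotes and -0.0382 to 0.0306 in early 2-cell embryos. The crossed pairing of the M2 libraries, chosen after seeing the data, also gave 0 calls. The block could not be fitted to the stage comparisons, since it lies within stages. Protein sequence features, and the other window planned for them, were not run, as no protein sequences were used here. Depth limits the early 2-cell stage most.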
